A study of Mus musculus with 96 samples.

Results

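Of 96 mouse libraries, labelled as oocytes, 2-cell blastomeres or negative controls, 4 held at least 100000 gene counts but almost no Gdf9, the RNA of a growth factor that oocytes make in large amounts. They were chosen by a level of Gdf9 under 20 CPM (gene counts of a library scaled to a total of 1000000), with no limit on the number of genes. Library 13 is labelled as a metaphase II oocyte of genotype Padi6+/+. Library 58 carries the label of a 2-cell blastomere of genotype Padi6+/+, and libraries 82 and 86 carry that of 2-cell blastomeres of genotype Padi6MatP620A/+, which inherited the P620A variant of Padi6 from the mother. Each of the 4 was described on its own and set beside 39 libraries with at least 100000 counts, at least 4000 genes with a count and Mos, an oocyte kinase RNA, at 100 CPM or more. These 39 are called Mos libraries here, and their labels are wild-type oocyte (12), wild-type 2-cell (14), mutant 2-cell (9) and negative control (4), with 0 from oocytes of genotype Padi6P620A/P620A.

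The series compares oocytes of genotypes Padi6+/+ and Padi6P620A/P620A and 2-cell blastomeres of genotypes Padi6+/+ and Padi6MatP620A/+, with 22 libraries of each, beside 8 negative controls. All females were 4 to 8 weeks old and were superovulated with PMSG, followed about 52 h later by hCG. Eggs were taken from the ampullae of the oviduct about 13 h after hCG and freed of cumulus cells with hyaluronidase. Embryos came from fertilisation in vitro with sperm of males of 8 to 12 weeks, and their zona and polar body were removed before the blastomeres were parted. Every library is therefore labelled as 1 picked cell or as a negative control, and no label names an animal. How many cells went into a library cannot be read from its counts, so fewer cells of a type and less RNA per cell cannot be told apart.

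The oviduct is lined by secretory cells, which release proteins such as oviductin (Ovgp1) into the fluid around the egg, and by ciliated cells, which move it. An ovulated egg reaches the ampulla wrapped in cumulus cells, the granulosa cells nearest to the oocyte, which build a matrix rich in hyaluronan and versican at ovulation. Granulosa cells that stay in the follicle turn to making progesterone, through the cholesterol side-chain cleavage enzyme Cyp11a1 and the dehydrogenase Hsd3b1. Oocytes and early embryos carry RNAs of their own, among them Gdf9, Bmp15, Dppa3 and Btg4. The lists of genes compared below are named after such sources. Some share members, as Wt1 is in both the granulosa and the mesothelium list.

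Gdf9 chose the libraries and its values are a description. Library 13 had 3 counts (10.5 CPM), and libraries 58, 82 and 86 had 0, which allows up to 18.0, 3.83 and 1.26 CPM (3 counts per library). The Mos libraries held from 1110 to 23779 CPM, with a median of 6981. Just outside the limit were library 30, labelled mutant oocyte, at 63.3 CPM and library 33, also labelled mutant oocyte, at 118 CPM. Mos had 0 counts in all 4 libraries.

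Library 82 went against the description of a somatic library. Gdf9 and Mos, which chose the libraries, were at 0, yet the 24 other genes of the oocyte list together took 6.50% of its counts (exact binomial 95% interval 6.45 to 6.56). In the Mos libraries these 24 genes took 0.775% to 7.81%, with a median of 5.26%. They took 0.00244% in library 13, 0.00419% in library 58 and 0.00417% in library 86, which is 7, 7 and 99 counts. With Gdf9 and Mos included, library 13 had 0.00349%, and the Mos libraries 0.906% to 10.2% with a median of 6.21%. So 3 libraries (13, 58 and 86) nearly lacked oocyte RNA, and results are given for them first and for library 82 apart.

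Depth and the number of genes differed widely. Libraries 13, 58, 82 and 86 held 286318, 167079, 784082 and 2374644 gene counts, and 3172, 3853, 2486 and 11160 genes with a count. After thinning to 100000 counts they held 2866, 3713, 2209 and 8299 genes, against 6830 to 11344 (median 8523) in the Mos libraries. Library 86 lay within that range. Libraries 13, 58 and 82 lay below it, and the choice of the Mos libraries, which needed 4000 genes, bears on that. Library 64, with Mos at 651 CPM and 3671 genes, was kept out by the same limit. It held 3370 genes after thinning, so library 58 lay above it and libraries 13 and 82 still lay below it. The libraries labelled negative control give no clean background, because 6 of 8 held more than 100000 counts and these had Gdf9 at 808 CPM or more. Other labels and RNAs also went against each other, and labels are kept as given. Of the 42 remaining deep libraries 20 are labelled mutant oocyte, and the highest share of the 2-cell burst list described below, 0.575% of counts, was in library 30 with that label. Intervals and floors cover counting error only, since reads copied by PCR without molecular identifiers are not independent molecules.

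**Figure D1:**
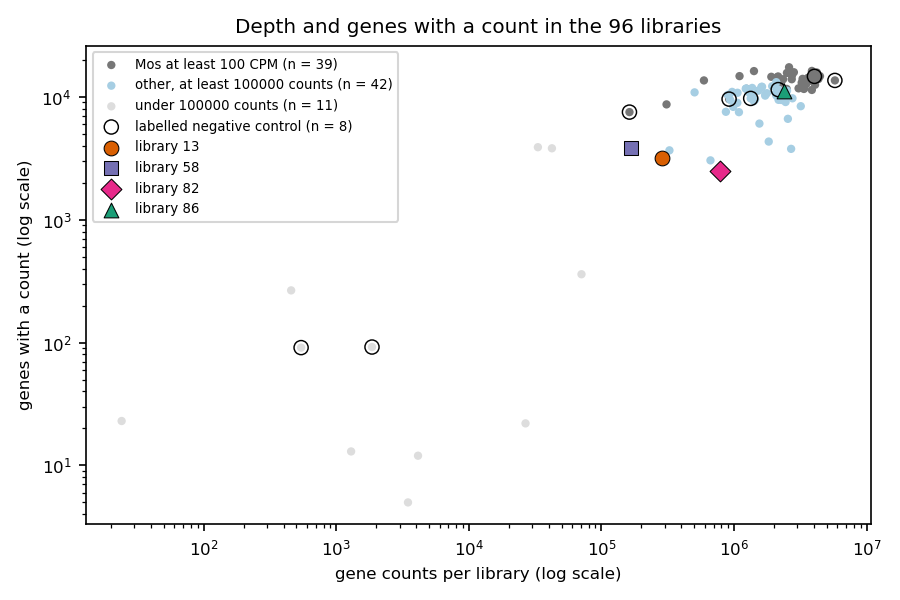
Gene counts (x axis, log scale) and genes with a count (y axis, log scale) in all 96 libraries, 1 point each. Libraries 13, 58 and 82 hold 3172, 3853 and 2486 genes and lie under the 4000 genes that the Mos libraries needed to be chosen, and library 86 holds 11160. Open circles mark the 8 libraries labelled negative control.

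Each library was compared with the 39 Mos libraries pooled, gene by gene. Genes of at least 10 CPM on either side entered, and a level 4 times above or below the pool was called higher or lower. No test was run, because measured values chose the libraries on both sides. In library 13, 1579 of 9345 genes (16.9%) were higher and 3257 (34.9%) were lower. In library 58 the share was 1925 of 9440 genes (20.4%) higher and 1958 (20.7%) lower. Library 86 had 3444 of 11058 genes (31.1%) higher and 3775 (34.1%) lower. Library 82 had 980 of 9047 genes (10.8%) higher and 5831 (64.5%) lower. Levels above every Mos library were found for 1464 genes (15.7%) in library 13, 1844 (19.5%) in library 58, 2718 (24.6%) in library 86 and 1179 (13.0%) in library 82. Such shares of all genes are the background for the counts of listed genes below. A count alone does not set a listed gene apart, since the Mos libraries, at a median of 3.24e+06 gene counts, also held many. Their median number with a count was 12 of 14 ciliated cell, 15 of 16 general epithelial and 8 of 12 secretory oviduct genes. It was 12 of 18 granulosa, 10 of 18 cumulus, 11 of 16 steroid-making, 7 of 12 stromal and 7 of 16 macrophage genes. A gene with 0 counts was put at the floor of 3 counts, so in library 58 it could count as lower only from about 4 times 18.0 CPM in the pool.

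These splits depended on the scaling. Under TMM factors 570 genes were higher and 7436 lower in library 13, 561 and 5817 in library 58, 551 and 7551 in library 82, and 2803 and 4184 in library 86. Under DESeq2 size factors, which rest on 331 genes counted in all 43 libraries, they were 1096 and 4908 in library 13, 1496 and 3002 in library 58, 723 and 7186 in library 82, and 2183 and 4289 in library 86. The median log2 ratio of all genes moved by -2.30, -2.29, -1.32 and -0.37 under TMM in libraries 13, 58, 82 and 86, and by -0.96, -0.73, -0.71 and -0.67 under DESeq2 factors. Such a factor shifts every gene of a library alike, so levels within 1 library keep their order, and list medians are given beside the median of all genes, which was -1.17, -0.25, -2.61 and 0.17 in libraries 13, 58, 82 and 86. Levels called above every Mos library are in CPM and were not recounted under these factors, so narrow margins may not hold under them. The TMM factor was 4.39 in library 13 and in library 58.

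The share of counts of 22 gene lists set the 4 libraries apart. Secretory oviduct genes took 1.65% of counts in library 13 (1.60 to 1.70), 0.318% in library 58 (0.291 to 0.346) and 0.620% in library 86 (0.610 to 0.630). The Mos libraries ranged from 0.00226% to 0.318% with a median of 0.0215%, so libraries 13 and 86 lay above all 39, and library 58 lay level with the highest. Ovgp1 made up 98.4%, 88.7% and 90.8% of these counts in libraries 13, 58 and 86. The other 11 genes took 0.0262%, 0.0359% and 0.0570%, within the range of the Mos libraries (0.000723% to 0.0612%, median 0.00571%). In library 82 all 12 secretory genes had 0 counts. The 14 genes of ciliated cells took 0.409% in library 13, 0.120% in library 58 and 0.182% in library 86, and no Mos library passed 0.0603%. Mlf1 made up 77.7% of these counts in library 13, and without it the shares were 0.0912%, 0.120% and 0.165%, with 0.0576% in the highest Mos library. Library 82 had 0.00383%, all of it from Mlf1.

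**Figure D2:**
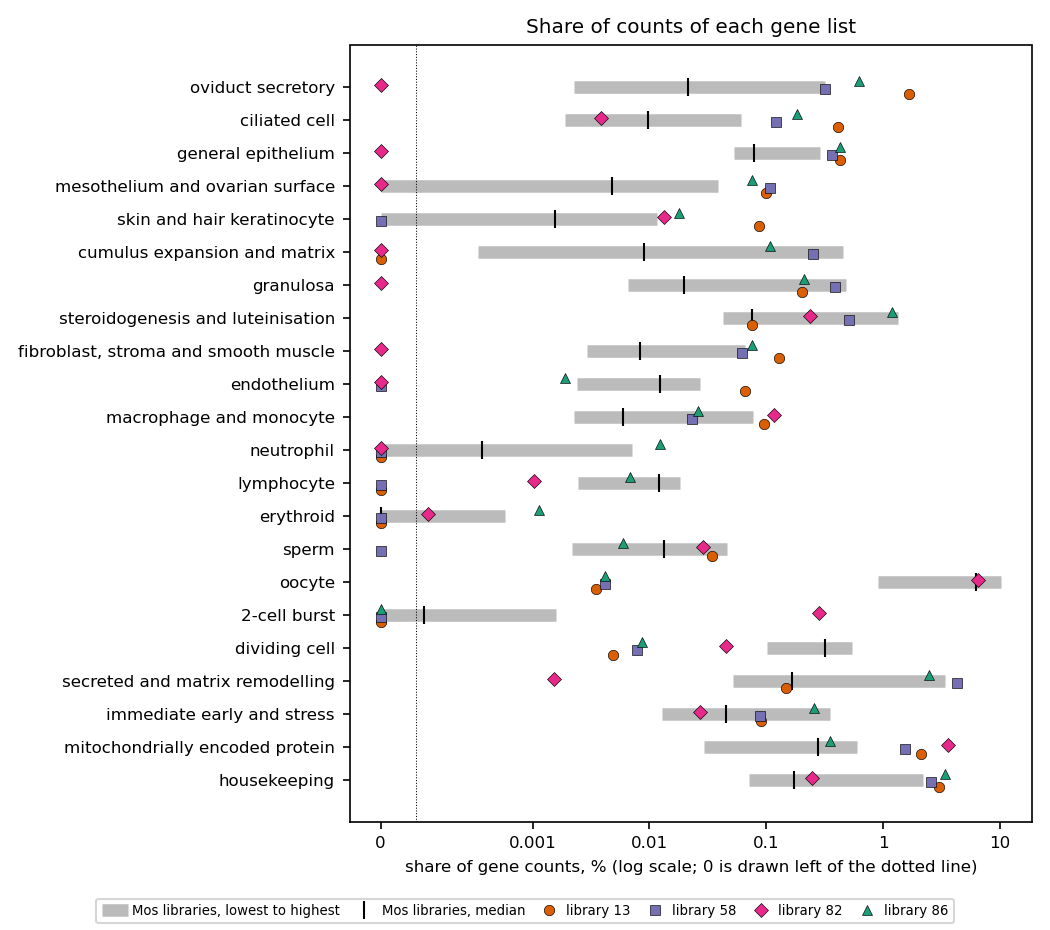
Share of gene counts (x axis, %, log scale, with 0 drawn left of the dotted line) of each of the 22 gene lists (rows). Coloured symbols are the 4 libraries, grey bars run from the lowest to the highest of the 39 Mos libraries and the black tick is their median. Libraries 13, 58 and 86 lie right of the bar for ciliated and general epithelium genes and far left of it for oocyte genes, where library 82 lies at 6.50%.

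Ovgp1 had the most counts of any gene with a proper name in library 13. This RNA of the secreted oviductin stood at 16248 CPM, against 0.978 to 2668 CPM (median 125) in the Mos libraries. That is 46.0 times the pool (44.6 to 47.4), and counts are not corrected for transcript length. The other 3 libraries had Ovgp1 at 2819 CPM (58), 0 CPM (82) and 5632 CPM (86). In the 6 deep negative controls it ranged from 0 to 892 CPM. Wfdc18, of the secreted whey acidic protein family, was at 4261 CPM (60.3 times the pool, 56.7 to 64.0). A related secreted protein of reproductive epithelia, Wfdc2, was at 520 CPM, against at most 48.0 CPM in a Mos library. Of the secretory list 4 of 12 genes had a count and 3 of 5 compared were higher. Ovgp1, Ltf (lactotransferrin, 108 CPM) and Spdef (83.8 CPM) were higher than the pool, while the oviduct transcription factors Pax8 and Sox17 had 0 counts.

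Genes of motile cilia were present in library 13. Of 14 listed genes 10 had a count, beside a median of 12 in the Mos libraries. Of the 11 compared 8 were higher, with a median log2 ratio of 2.82 beside -1.17 over all genes. Mlf1, known from ciliated cells, was at 3182 CPM, against 0 to 165 CPM (median 9.18) in the Mos libraries. Dynlrb2, a dynein light chain, was at 339 CPM and Rsph1, a radial spoke protein, at 224 CPM, above every Mos library (at most 116 and 35.2 CPM). Foxj1, the transcription factor of motile cilia, had 14.0 CPM, which 2 Mos libraries passed. Deup1, which drives the amplification of centrioles in cells that will bear many cilia, was at 1942 CPM in library 13, with 0 counts in the other 3 and at most 3.08 CPM in a Mos library. Mapk15, a kinase with a role in cilia formation, was at 185 CPM against at most 3.66 CPM. Long axonemal proteins such as Dnah5, Dnah9 and Hydin had 0 counts in library 13.

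Simple epithelial keratins accompanied them. Krt8, Krt18 and Krt7 were at 1058, 1125 and 213 CPM in library 13, each above every Mos library (at most 744, 583 and 81.2 CPM). Of 16 general epithelial genes 14 had a count, and of 15 compared 8 were higher and 2 lower. Krt10, a keratin best known from the upper layers of skin, was at 866 CPM against at most 28.3 CPM, yet the other 10 genes of the skin and hair list had 0 counts. Wt1, a transcription factor of mesothelium and of gonadal support cells, was at 520 CPM (at most 37.3 CPM in a Mos library), while the mesothelial genes Msln and Upk3b were at 0.

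Cumulus genes were not detected in library 13. All 18 genes of the cumulus expansion list had 0 counts, which allows up to 10.5 CPM for the list, while the Mos libraries ranged up to 0.450% of counts. Cyp11a1 was at 66.4 CPM and Hsd3b1 at 402 CPM, and 13 Mos libraries lay above each. Timp1, an inhibitor of matrix proteases, was at 0. Spp1, the secreted phosphoprotein osteopontin, was at 129 CPM, 26.4 times below the pool, and 32 of 39 Mos libraries lay above it. Against the 42 other deep libraries in place of the Mos pool, though, Spp1 in library 13 was 8.52 times higher. Granulosa genes took 0.200% of counts, a share that 3 Mos libraries passed, from 4 of 18 genes. Of 12 compared 3 were higher and 4 lower, with a median log2 ratio of -0.56 beside -1.17 over all genes. Kctd14 led them at 1121 CPM, above every Mos library (at most 257 CPM), and Gja1 was at 157 CPM.

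Stromal genes were present in library 13, with 1 of 8 endothelial and 5 of 16 macrophage genes. Of 12 fibroblast and smooth muscle genes 7 had a count. Of 10 compared 7 were higher and 0 lower, beside 16.9% higher and 34.9% lower over all genes. Lum (lumican, a matrix proteoglycan, 531 CPM), Col1a2 (311 CPM) and Col1a1 (129 CPM) led them. Kdr, a VEGF receptor, was at 653 CPM against at most 21.1 CPM in a Mos library, but the other 7 endothelial genes, Pecam1 and Cdh5 among them, had 0 counts. Cd14 (559 CPM) and Csf1r (332 CPM), receptors of monocytes and macrophages, were above every Mos library, while Adgre1, Cd68 and Tyrobp were at 0. Neutrophil, lymphocyte and erythroid lists had 0 counts. Of 10 sperm genes only Oaz3 had a count (346 CPM, at most 18.5 CPM in a Mos library), and the protamines Prm1 and Prm2 had none.

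Further genes with many counts in library 13 have broad roles. Hsp90aa1, a cytosolic chaperone, was at 15039 CPM against 2484, 254 and 822 CPM in libraries 58, 82 and 86. Ppp4r3b, a subunit of protein phosphatase 4, was at 7338 CPM, with 194 CPM in the highest Mos library and 59.9 CPM or less in the other 3. Snrpe, a core splicing protein, was at 6430 CPM, against 934 CPM in the highest Mos library. Selenop, a selenium carrier, was at 3786 CPM, 321 times the pool (296 to 348), and Ccdc152 at 3360 CPM. The genes Selenop and Ccdc152 overlap on opposite strands, as do Hoxa3 and Hoxaas2, which had 65 counts each, and without knowledge of strand their reads cannot be told apart. Among the 15 largest ratios at 100 CPM or more were also the sorting nexin Snx10 (1201 CPM), Utp23 of ribosome assembly (1631 CPM) and the protease inhibitor A2m (409 CPM). Each of these 3 was at 46.7 CPM or less in the other 3 libraries and at 19.8 CPM or less in every Mos library.

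Library 58 differed from library 13 in its leading genes. Spp1 was at 38563 CPM, above every Mos library (0 to 25258 CPM, median 640), and 11.3 times the pool (11.0 to 11.6). The other libraries had 129 CPM (13), 0 CPM (82) and 16554 CPM (86). Itm2a, a membrane protein, was at 8367 CPM against at most 1356 CPM in a Mos library, which is 88.0 times the pool (83.2 to 93.1). Gm2a, an activator of lysosomal lipid breakdown, was at 4914 CPM and the epoxide hydrolase Ephx2 at 3944 CPM. Akr1c18, which inactivates progesterone, was at 3292 CPM against 0 to 1560 CPM (median 29.8). Library 61, a Mos library labelled wild-type 2-cell, was the highest Mos library for Ephx2 (6625 CPM) and Gm2a (1426 CPM).

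Cumulus and granulosa genes were carried by few members in library 58. The cumulus list took 0.251% of counts (0.228 to 0.277), a share that 1 Mos library passed, and 6 of its 18 genes had a count, with 5 of 12 compared higher and 0 lower. Grem1, a BMP antagonist of cumulus cells, was at 1598 CPM against at most 310 CPM in a Mos library. Tnc (269 CPM), Sult1e1 (198 CPM), Vcan (186 CPM), Thbs1 (168 CPM) and the progesterone receptor Pgr (95.8 CPM) were the other 5. Has2, Tnfaip6, Ptx3 and Ptgs2, which act in building the matrix at ovulation, had 0 counts. Of the 18 granulosa genes 7 had a count, and of 11 compared 4 were higher and 1 lower. Gja1, the gap junction protein connexin 43, was at 2131 CPM and Inhba, an activin subunit, at 1017 CPM, both above every Mos library (at most 1214 and 143 CPM). Greb1, a target of steroid receptors, was at 461 CPM.

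Steroid-making genes were uneven in library 58. Hsd3b1 was at 1125 CPM, and 5 Mos libraries lay above it. Cyp11a1 had 0 counts, which allows up to 18.0 CPM, and Star and Fdxr, its partners in cholesterol delivery and electron transfer, were at 0 as well. The list took 0.508% of counts from 3 of 16 genes, namely Akr1c18, Hsd3b1 and Fdx1 (658 CPM), and of 11 compared 1 was higher and 5 lower. Timp1 was at 1023 CPM, 4.09 times the pool (3.50 to 4.75), but 0.834 times under TMM factors. Secreted and matrix genes as a list took 4.33% of counts, above the highest Mos library at 3.42%, mostly through Spp1.

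Oviduct and cilia genes were also present in library 58. Ovgp1 was at 2819 CPM, just above the highest Mos library (2668 CPM). Pax8, a transcription factor of secretory oviduct cells, was at 227 CPM against at most 34.6 CPM. Ccdc153 (473 CPM), Cfap126 (323 CPM), Rsph1 (215 CPM) and Dynlrb2 (138 CPM), all linked to motile cilia, were above every Mos library. Mlf1 and Deup1 were at 0. Mns1 (736 CPM) and Rsph10b (150 CPM), which serve the ciliary axoneme, were among the 15 largest ratios at 100 CPM or more. The same 15 included the Wnt receptor Ror2 (203 CPM), the growth factor Gdf5 (156 CPM) and the transcription factor Meis3 (377 CPM). Krt18, Krt19 and Epcam, an epithelial adhesion protein, were at 1377, 964 and 341 CPM, all above the Mos libraries. Of 16 general epithelial genes only 8 had a count, and of 12 compared 5 were higher and 3 lower, with a median log2 ratio of 0.23 beside -0.25 over all genes. Cdh1, the adhesion protein E-cadherin, had 0 counts, at least 11.1-fold lower than the pool, and all 39 Mos libraries lay above it.

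Stromal genes took 0.0622% of counts in library 58, a share that 1 Mos library passed. Col1a2 was at 251 CPM, Tagln at 132 CPM and Col1a1 at 77.8 CPM, each above every Mos library. Csf1r (209 CPM) and Aif1 (23.9 CPM) were the only ones of 16 macrophage genes with a count. Endothelial, neutrophil, lymphocyte, erythroid and sperm lists had 0 counts. Oocyte genes with a count in library 58 were Zbed3 (18.0 CPM, 3 counts), H1f8 (12.0 CPM, 2 counts), Bmp15 and Btg4 (5.99 CPM, 1 count each).

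Library 86, the deepest, held the broadest set of genes. Spp1 was at 16554 CPM, which 3 Mos libraries passed, and Ovgp1 at 5632 CPM, above all 39 and 15.9 times the pool (15.6 to 16.3). Of the 12 secretory genes 7 were compared, and 6 were higher and 1 lower. Ltf (213 CPM), C3 (143 CPM) and Sox17 (109 CPM) were among the 6. All 14 cilia genes had a count and 10 were higher, with a median log2 ratio of 4.04 beside 0.17 over all genes. Tppp3, Dynlrb2, Ccdc153 and Pifo were at 482, 315, 241 and 204 CPM, above every Mos library. Deup1 had 0 of 2374644 counts, which allows up to 1.26 CPM, where library 13 held 1942 CPM.

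General epithelial genes in library 86 were led by keratins. Krt18 was at 1500 CPM, Krt8 at 947 CPM and Krt19 at 674 CPM, above every Mos library. Lcn2 (lipocalin 2, 344 CPM) and Cldn7 (204 CPM) were above them too. The list took 0.424% of counts, beside 0.428% in library 13 and 0.363% in library 58. Cdh1, Ehf and Cldn4 were lower than the pool in library 86, and these 3 had medians of 201, 179 and 52.3 CPM in the Mos libraries.

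Steroid-making genes reached their highest share among the 4 libraries in library 86. The list took 1.18% of counts, a share that 1 Mos library passed, and 13 of 16 genes had a count. Of 12 compared 7 were higher and 2 lower. Hsd3b1 was at 3483 CPM, Cyp11a1 at 1542 CPM and Fdx1, which passes electrons to it, at 2975 CPM. Fdxr (558 CPM), Star (204 CPM) and Akr1c18 (1927 CPM) were higher as well. For Cyp11a1 the Mos libraries ranged from 0 to 1773 CPM (median 16.7), with library 61 highest. The same library was the highest for Hsd3b1 (4024 CPM) and Fdxr (715 CPM). Scarb1, the HDL receptor, was at 309 CPM, which 5 Mos libraries passed. Lhcgr, the LH receptor, had 4.63 CPM.

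Granulosa and cumulus genes in library 86 spread over most of the lists. Of 18 cumulus genes 16 had a count, against 6 in library 58 and 0 in library 13. Library 86 had more counts than these, and the part of depth in the number of listed genes detected was not tested. The list took 0.108% of counts, which 4 Mos libraries passed. Tnc (215 CPM), Tnfaip6 (184 CPM), Runx2 (166 CPM), Vcan (115 CPM) and Ptgs2 (104 CPM) led it. Of the 13 compared 4 were higher, 0 lower and 0 above every Mos library. Over all genes of library 86, 31.1% were higher and 34.1% lower, so higher calls were about as frequent among cumulus genes as among all genes. Grem1, at 1598 CPM in library 58, was at 32.8 CPM. Of 18 granulosa genes 15 had a count, and of 12 compared 7 were higher and 1 lower, led by Gja1 (566 CPM), Inha (509 CPM), Fst (346 CPM) and Kctd14 (258 CPM). Fshr and Amh, which mark growing follicles, had 0 counts in all 4 libraries. Timp1 was at 2414 CPM, 9.65 times the pool (9.38 to 9.93), and above every Mos library. The pool's levels of several of these genes rested on library 61. Without it the pooled level fell from 104.6 to 53.5 CPM for Inha, from 82.7 to 44.8 CPM for Fst, from 59.2 to 32.0 CPM for Fdxr and from 45.8 to 28.5 CPM for Tnfaip6, so their ratios in library 86 rise by 1.96, 1.85, 1.85 and 1.61 times. The same holds for Thbs1 (2.78 times) and Pgr (2.60 times) in library 58.

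Immune, stromal and blood genes were detected in library 86 at low level. Of 16 macrophage genes 13 had a count, with Fcgr3 (64.4 CPM), Lyz2 (34.5 CPM) and Tyrobp (32.4 CPM) at the top, and the list took 0.0262% of counts. Of its 12 genes compared 8 were higher and 2 lower. Of 14 neutrophil genes 6 had a count, Camp (69.5 CPM) and Mmp8 (26.1 CPM) among them, but S100a8 and S100a9 were at 0. Ptprc, the leukocyte antigen CD45, and the T and B cell genes Cd3e and Cd79a had 0 counts in all 4 libraries. Of the 16 lymphocyte genes only Coro1a and Cd52 had a count in library 86, and both were higher than the pool. Coro1a was at 35.0 CPM (at most 11.0 CPM in a Mos library) and Cd52 at 32.8 CPM (1 Mos library passed it). Of 3 lymphocyte genes compared 2 were higher and 1 lower. The list took 0.00678% of counts in library 86, a share that 34 Mos libraries passed. Cd52 was at 10.2 CPM in library 82. Without library 61 the pooled levels of Coro1a and Cd52 fell 1.80 and 2.46 times. Haemoglobin genes together took 0.00114% of counts. Of 12 stromal genes 11 had a count, and of 12 compared 10 were higher and 1 lower. Acta2 (203 CPM), Fbln1 (160 CPM) and Tagln (152 CPM) led them, while the endothelial genes Pecam1 and Kdr were at 0. Without library 61 the pooled level of Fbln1 fell from 33.8 to 15.0 CPM and that of Fos from 15.2 to 8.77 CPM. Early response genes were present, with Ier3 at 1078 CPM, Junb at 408 CPM and Fos at 175 CPM. Among the 20 genes with most counts in library 86 were the ferritin chains Ftl1 (7181 CPM) and Fth1 (6064 CPM), above every Mos library (at most 3835 and 2623 CPM). Library 13 held Jun at 681 CPM with Fos at 0, and library 58 held Ier3 at 503 CPM with Fos at 0.

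**Figure D3:**
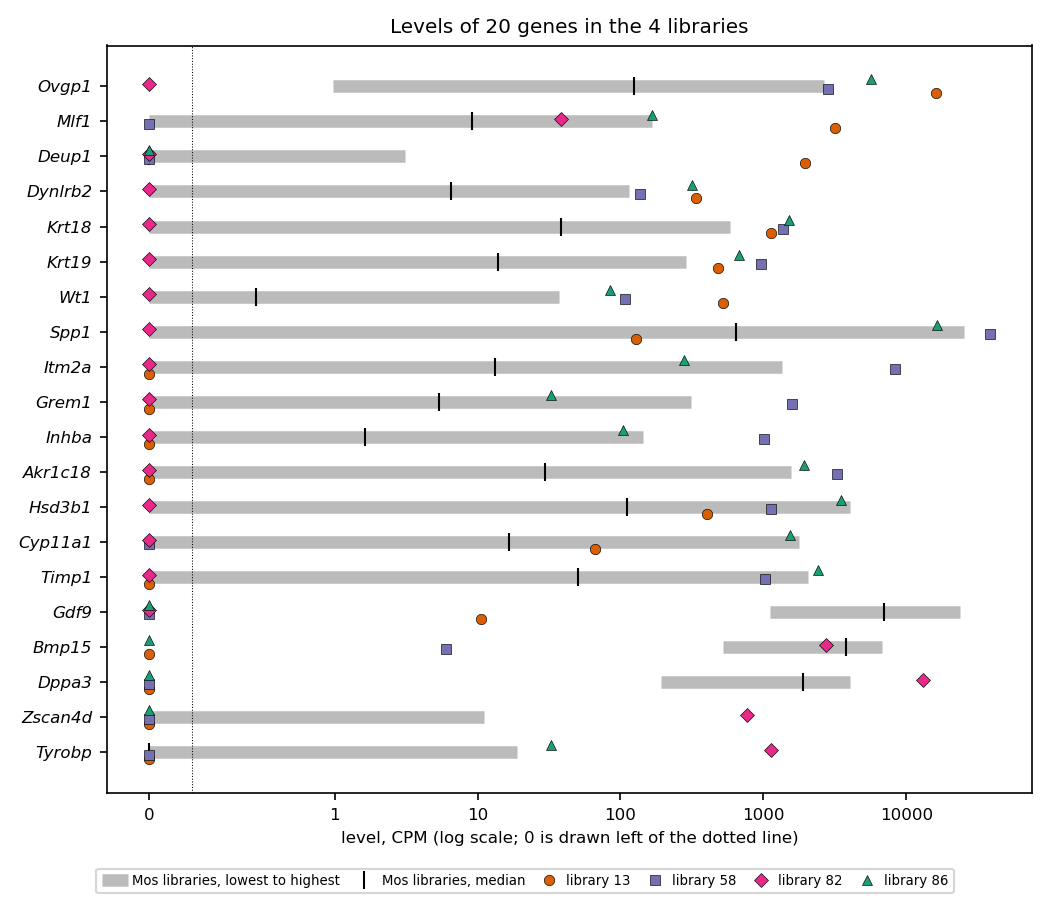
Level of 20 genes (rows) in CPM (x axis, log scale, with 0 drawn left of the dotted line) in libraries 13, 58, 82 and 86 (coloured symbols), beside the lowest to highest (grey bar) and median (black tick) of the 39 Mos libraries. Ovgp1, Krt18, Krt19 and Wt1 lie above the bar in libraries 13, 58 and 86 and at 0 in library 82. Spp1 is at 38563 and 16554 CPM in libraries 58 and 86 and at 129 CPM in library 13.

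Oocyte and growth genes were low in the same 3 libraries. Bmp15, the partner growth factor of Gdf9, was at 0, 5.99 and 0 CPM in libraries 13, 58 and 86, against 524 to 6777 CPM in the Mos libraries. H1f8, the oocyte linker histone, had 1, 2 and 1 counts, which is 0.000289 (7.32e-06 to 0.00161), 0.00099 (0.00012 to 0.00358) and 3.48e-05 (8.82e-07 to 0.000194) times the pool. Padi6 itself was at 0, 0 and 4.21 CPM, against 511 to 11536 CPM. The dividing cell list took 0.00489%, 0.00778% and 0.00859% of counts, below the lowest Mos library at 0.102%. Mcm5 alone carried it in library 13 (48.9 CPM) and Mki67 alone in library 58 (77.8 CPM). The 2-cell burst list, genes switched on as the embryonic genome starts, had 0 counts in all 3.

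Genes active in most cells were high in these 3 libraries. The 13 housekeeping genes took 3.03%, 2.59% and 3.41% of counts in libraries 13, 58 and 86, above the highest Mos library at 2.21%. Eef1a1, the translation elongation factor, was at 5840, 3172 and 5809 CPM, against 61.0 to 4641 CPM (median 299), and in library 58 its ratio of 4.61 became 0.940 under TMM factors. Cytosolic ribosomal protein genes took 9.10%, 8.79% and 12.2% of counts, against 0.116% to 7.15% (median 0.384%) in the Mos libraries. Mitochondrially encoded genes took 2.13% and 1.54% in libraries 13 and 58, above the Mos libraries (at most 0.592%), and 0.348% in library 86, within them.

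Library 82 held a different set, led by the oocyte genes Omt2b (22304 CPM) and Omt2a (13287 CPM). Zbed3, an abundant oocyte RNA, was at 21185 CPM, Dppa3 at 13185 CPM, Btg4, which drives maternal RNA decay, at 9318 CPM and Bcl2l10 at 8799 CPM, all above every Mos library. Bmp15 was at 2736 CPM, within the Mos range. Of the 26 oocyte genes 14 had a count, while Gdf9, Mos, Padi6, Zp1, Zp2, Zp3, Zar1 and Npm2 had 0, which allows up to 3.83 CPM each. H1f8 was at 552 CPM, below the lowest Mos library at 1760 CPM and near the median of the 42 other deep libraries, 767 CPM. In those 42 libraries Gdf9 had a median of 548 CPM and Padi6 of 195 CPM. Plat and Lamb1, at 3941 and 3071 CPM at the Mos median, were also at 0 in library 82 and at 30.4 and 63.3 CPM at the median of the other 42.

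Genes of early genome activation were present in library 82. The 2-cell burst list took 0.285% of counts (0.273 to 0.297), against at most 0.00158% in a Mos library and a median of 0.10% in the 42 others. Eif1ad8 was at 1066 CPM, Zscan4d at 767 CPM, Tdpoz4 at 511 CPM and Eif1ad6 at 386 CPM, all members of embryonic gene families whose near-identical copies share reads. Zfp352, Tdpoz3 and Tmem92 of the same list were at 0, where the 42 others had medians of 200, 30.5 and 124 CPM. Zscan4d had a median of 146 CPM in those 42 and at most 11.1 CPM in a Mos library.

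Few somatic genes were detected in library 82. The secretory, general epithelial, mesothelial, cumulus, granulosa, stromal and endothelial lists had 0 counts of 784082. Spp1, Ovgp1, Timp1 and Cyp11a1 were at 0. Tyrobp, an adaptor protein of myeloid cells, was at 1127 CPM, above every Mos library (at most 18.8 CPM), with Fcgr3 at 40.8 CPM and the other 14 macrophage genes at 0. Prlr, the prolactin receptor, was at 897 CPM (39.6 to 258 CPM in the Mos libraries), and Fdx1 at 1465 CPM. Mitochondrially encoded genes took 3.56% of counts, beside a median of 2.03% in the 42 other deep libraries, with mt-Cytb at 14002 CPM and mt-Nd1 at 10708 CPM. Ribosomal protein genes took 0.986%, against 0.492% at the median of the 42. Cst7 (517 CPM), Rhcg (463 CPM) and Myo1g (880 CPM) were also among the 15 largest ratios of this library.

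Levels of 12027 genes, on the log2(CPM + 1) scale, were correlated between the libraries as a description, since genes are not independent replicates. These genes had at least 10 CPM in any of the 4 libraries or in the Mos pool. A gene could thus enter through 1 of the 4 libraries alone, which bears on r and on the order of libraries by r below. Libraries 58 and 86 had r = 0.41, libraries 13 and 86 had r = 0.39 and libraries 13 and 58 had r = 0.34. Spearman's rho was 0.39, 0.37 and 0.31 for the same pairs, and thinning to 100000 counts gave r of 0.39, 0.37 and 0.34. Library 82 had r of 0.06, 0.08 and 0.00 with libraries 13, 58 and 86, but 0.29 with the median Mos library and 0.44 with the median of the 42 others. The 3 libraries had r between 0.05 and 0.11 with the median Mos library. All share the same protocol and differ in depth.

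**Figure D4:**
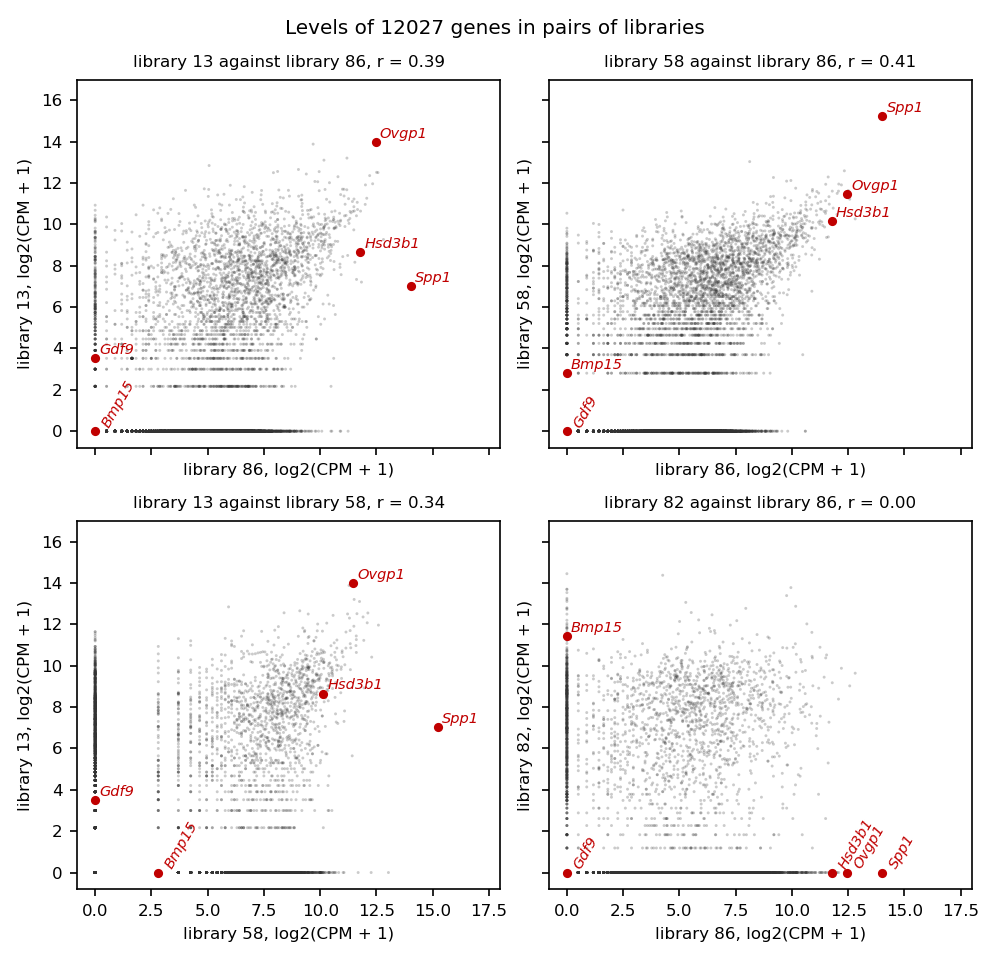
Levels of 12027 genes (points) in 4 pairs of libraries, on the log2(CPM + 1) scale on both axes, with r in each title. Ovgp1 lies high in libraries 13, 58 and 86, and Hsd3b1 lies lower in library 13 than in libraries 58 and 86. Both are at 0 in library 82, where Bmp15 is high. Rows of points at low values are genes of 1 or a few counts.

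Libraries 13, 58 and 86 shared part of their genes. Of genes at 10 CPM or more, 1358 were held by libraries 13, 58 and 86 together, which is 48.8% of those in library 13, 37.9% of those in library 58 and 17.6% of those in library 86. At 100 CPM or more 562 were shared, or 35.3%, 27.4% and 28.0%. Of the genes that library 13 held at 10 CPM or more, 80.5% reached it in library 86 too, and of those of library 58, 79.3% did. Library 86 held 7737 genes at that level, and 55.8% of the genes of library 82 were among them as well.

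The libraries most like these were then listed. Among the 84 other deep libraries, library 13 had its highest r with libraries 86 (0.39), 58 (0.34) and 64 (0.33). Library 58 had its highest with libraries 86 (0.41), 61 (0.38) and 23 (0.34). For library 86 the highest was library 61 (r = 0.58), above libraries 58 and 23 (0.41 each). Libraries 61 and 64 are labelled wild-type 2-cell and library 23 negative control, and all 3 held Gdf9. Library 64 had Ovgp1 at 10380 CPM, Krt18 at 805 CPM and Deup1 at 765 CPM beside Gdf9 at 6060 CPM, while Spp1, Timp1 and Hsd3b1 were at 0. With 3671 genes it missed the limit of 4000 for the Mos libraries. Library 61 had Spp1 at 23823 CPM and Ovgp1 at 1284 CPM beside Gdf9 at 1110 CPM. Library 23 had Spp1 at 23752 CPM and Hsd3b1 at 3330 CPM. For library 82 the nearest were libraries 88, 81 and 5 (0.43, 0.42 and 0.42), which held Dppa3 at 6624, 14881 and 11380 CPM and Zscan4d at 442, 622 and 595 CPM, while libraries 58, 13 and 86 were the last 3 of the 84.

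Because all 4 comparisons share the same Mos libraries, their ratios are not independent of each other. The Mos libraries hold somatic RNA as well, with Spp1 detected in 38, Ovgp1 in 39, Timp1 in 36 and Cyp11a1 in 34 of 39. Leaving out library 61 alone lowered the pooled level of Cyp11a1 from 202.9 to 137.9 CPM and of Ephx2 from 747.4 to 504.3 CPM. In the 42 other deep libraries the same genes were detected in 17 (Spp1), 8 (Ovgp1), 5 (Timp1) and 11 (Cyp11a1).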

How the data were processed

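Polyadenylated RNA of picked cells was separated from DNA, copied with template switching, amplified over 15 PCR cycles and tagmented, per the labels' protocols. The authors deposited raw gene counts (36983 entries, 48 repeated symbols summed here, 96 columns). Reads were trimmed with Trim Galore 0.4.4 and aligned with HISAT2 2.1.0 to GRCm39, and DESeq2 was used, per the submitters' processing notes. The read counter and its strand setting are not given in the sources used here.

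CPM is counts over the library's gene counts. Ratios to the pooled Mos libraries have exact conditional binomial 95% intervals, and a side with 0 counts stands at 3 counts. These steps were tested on simulated data. Thinning drew 100000 counts per library. TMM factors (edgeR 4.0.16) and size factors (DESeq2 1.42.0) served only as alternatives. Of 294 listed genes 293 were in the table. Numbers of genes, depth and labels are given with the results. No animal is named by the labels, each library is 1 sample and no sequence is printed. No p-value was computed, and Dixon's critical value served only as a rule to flag far values.

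Named genes are the 5 markers Spp1, Ovgp1, Timp1, Cyp11a1 and Gdf9, and for each library the 20 with most counts, the 15 largest ratios at 100 CPM or more, the 10 smallest ratios at 100 CPM or more in the pool, and up to 5 members of each list. The text gives a part of these, and values of other list members at 0 or for comparison. The libraries, limits, gene lists and alternatives were chosen with earlier results of these data known. The comparison with the 42 other libraries and the shares without Ovgp1 or Mlf1 were added after the values were seen.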

Additional observations from a re-analysis of the deposited data

Results flagged for a closer look

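Among the 4 libraries, 28 quantities were looked at for a value far from the other 3 (the gap to the nearest, over the whole range, above Dixon's 95% critical value for 4 samples), and 10 were found. Chance meets this rule in about 1 of 20 groups of normally spread values, and whether these values are so spread was not tested. That rate does not hold for the neutrophil and 2-cell burst lists, where 3 libraries were at 0 and any count meets it. The endothelial, lymphocyte and erythroid lists also had libraries at 0, and the oocyte list includes Gdf9, which chose the libraries. Library 82 held 6.50% of counts from oocyte genes, where the next held 0.00419%, and 0.285% from the 2-cell burst list, where the others held 0. Its share of dividing cell genes was 0.0453% (next 0.00859%), yet below the lowest Mos library at 0.102%. Its share of general epithelium genes was 0% (next 0.363%). Library 86 stood apart with 11160 genes with a count (next 3853), Cyp11a1 at 1542 CPM (next 66.4 CPM), and 0.0124% of counts from neutrophil genes (next 0%). The shares of lymphocyte genes (0.00678%, next 0.00102%) and erythroid genes (0.00114%, next 0.000128%) in library 86 were also far from the others. That lymphocyte share was passed by 34 Mos libraries. Library 86 was the deepest of the 4. Library 13 had 0.0653% from endothelial genes (next 0.00190%), all of it Kdr.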

How the results depend on the processing

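Membership depended on the limits. A minimum of 500000 counts left 2 libraries (82 and 86). Gdf9 under 5 CPM left 3 (58, 82 and 86), under 100 CPM gave 5 (library 30 added), and the oocyte list under 0.1% of counts in place of Gdf9 left 3 (13, 58 and 86). Under TMM factors 570 genes were higher in library 13, 561 in library 58 and 551 in library 82, and 7436 were lower in library 13 and 5817 in library 58. DESeq2 size factors gave 4908 lower genes in library 13, 3002 in library 58 and 2183 higher genes in library 86. Against the median of the Mos libraries in place of their pool, 5812 genes were lower in library 13 and 5257 in library 58. Thinning to 100000 counts left 1427, 1291, 1177 and 1391 lower genes in libraries 13, 58, 82 and 86, with fewer counts to show a loss. A minimum of 50 CPM, which admits fewer genes, left 2635 lower genes in library 82, and 1990 higher and 1969 lower genes in library 86.

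Thinned shares were 0.633% (secretory oviduct) and 0.217% (granulosa) in library 86 and 0.225% (granulosa) in library 13. With Ovgp1 left out of the secretory list, a choice made after seeing the data, its share was 0.0262%, 0.0359% and 0.0570% in libraries 13, 58 and 86. The oocyte share after thinning was 6.63% in library 82 and 0.003% in library 86, and without mitochondrial genes it was 6.74% in library 82. For part of the named genes, 648 ratios under the alternatives left the counting-error interval of the main ratio, and 786 stayed within it. Leave-one-out ratios were counted here only where they changed much. Direction changed for 3 gene ratios. Spp1 in library 13 was 8.52 times the 42 other libraries, and under TMM factors Eef1a1 and Timp1 in library 58 were 0.940 and 0.834 times the pool. For the DESeq2, median and TMM values the cause was not tested.

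Leaving out each of the 39 Mos libraries in turn gave 1560 to 1651 higher genes in library 13, 1908 to 2009 in library 58, 979 to 986 in library 82 and 3390 to 3701 in library 86. Lower genes ranged over 3215 to 3278, 1951 to 1963, 5609 to 5865 and 3763 to 3800. The depth of libraries 13 and 58 puts the floor at 10.5 and 18.0 CPM, so losses below that cannot be seen. No paired analysis was possible because no test between groups was run and no number in the labels ties a library of 1 group to a library of another.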
